A study of Mus musculus with 163 samples.

Results

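Notch pathway transcripts were read in 163 single mouse oocytes for 10 genes, chosen by name from a table of 21950. They comprise the receptors Notch1, Notch2 and Notch3, the ligands Jag1, Jag2 and Dll1, the DNA-binding effector Rbpj and the targets Hes1, Hes5 and Hey1. All 10 were found by their Entrez identifiers. The choice rested partly on these data, because the low level of Hes5 in fully grown oocytes in vivo was known when the genes were chosen. The values for Hes5 in the in vivo comparison are therefore a description.

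Each library came from 1 oocyte by Smart-seq2, which copies polyadenylated RNA over its full length. Growing oocytes (GROs) came from BVSC-iPSC (23 oocytes), 1 cell line with the reporters Blimp1-Venus and Stella-ECFP, from E12.5 embryonic gonads (24), or directly from mice, called in vivo (24). Fully grown oocytes (FGOs) came from the iPSC line (24), from E12.5 gonads (24), from follicles taken at 6 days post partum (6 dpp; 24) or in vivo (20). The iPSC-derived and gonad-derived oocytes passed through in vitro differentiation (IVD), and the iPSC-derived ones before it through the in vitro step to primordial germ cell-like cells (IVP). Their FGOs and the 6 dpp FGOs also passed through follicle growth in culture (IVG). All oocytes were freed of follicular cells and of the zona pellucida before lysis. The paper reports that iPSC-derived and gonad-derived GROs were larger than in vivo GROs. Size did not enter the ratios here. Culture and oocyte size can thus not be told apart where cultured and in vivo GROs, or growth from them, are compared. The labels name no animal or culture behind an oocyte, and the strain and age of the in vivo donors are not given in the labels. Each group therefore counted as 1 sample, and no test was run on any difference.

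The Notch pathway passes signals between touching cells. A ligand of the Jagged or Delta family on one cell pulls on a receptor of its neighbour, the receptor is cut by ADAM proteases and by gamma-secretase, and its freed intracellular part joins RBPJ and Mastermind proteins on DNA. Genes of the Hes and Hey families, which encode repressors of transcription, are classical targets. In the mouse ovary the oocyte is known as a source of JAG1, and the surrounding granulosa cells carry NOTCH2.

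Values are in CPM, the reads of a gene scaled to the total reads of its oocyte. The pooled value of a group divides the summed reads of its oocytes by their summed libraries, and its exact Poisson 95% interval covers counting error only. Groups are compared by the log2 ratio of their pooled values after adding 0.5 CPM to both, which understates differences of scarce transcripts. A gene was read in a comparison if 3 or more oocytes exceeded 1 CPM, counted over all groups of that stage or, for growth, over the GROs and FGOs compared. A gene could thus pass through 1 group, as Hes5 did in growth in vivo, with 24 GROs and 1 FGO above 1 CPM. Libraries held from 2170106 to 13692528 reads, so that 1 read was worth between 0.0730 and 0.461 CPM. CPM gives a share of an oocyte's reads and not an amount of RNA per cell. All 12 oocyte markers on the list were in the table, and 11 or 12 of them reached 1 pooled CPM in each group. Their summed level had medians of 47611 to 51605 CPM in the GRO groups and of 23404 to 39630 CPM in the FGO groups.

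Some libraries stood apart. The in vivo GROs numbered 17 to 24 separated from those numbered 1 to 16 on the first component of variation within that group, which held 30.3% of its variance over 9725 genes. All 8 lay on one side and all 16 on the other. The labels mention strips of 8 tubes without saying which oocyte was in which, so no batch can be assigned to this split. Over 13422 genes, 6.88% were at least 2-fold higher in oocytes 17 to 24 and 1.14% at least 2-fold lower. In vivo FGOs 5, 7, 19 and 22 had scores below 0 on the component that divides GROs from FGOs, where the median FGO had 39.6 and the median GRO -48.4. The member ratios that these oocytes moved most are given with and without them.

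Hes5, on mouse chromosome 4 (chr4:154960923-154962371, GRCm38, plus strand), had the widest range between groups of the 10 genes on the ratio scale. The window from 250 bases before to 50 bases after its start, as RefSeq gives it for GRCm38.p6 at chr4:154960673-154960972 on the plus strand, is shown because it holds the letters that RBPJ is known to prefer. GTGGGAA or its reverse complement TTCCCAC, searched on both strands, is in capitals.

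Hes5: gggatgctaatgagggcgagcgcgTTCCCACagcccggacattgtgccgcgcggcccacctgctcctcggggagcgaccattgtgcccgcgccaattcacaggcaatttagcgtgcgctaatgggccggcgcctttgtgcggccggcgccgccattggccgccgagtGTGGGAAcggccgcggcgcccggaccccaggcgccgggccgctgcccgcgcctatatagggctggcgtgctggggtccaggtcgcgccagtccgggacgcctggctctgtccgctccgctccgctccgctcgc

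The window held 2 such matches, at positions -226 to -220 (read on the minus strand) and -83 to -77 (plus strand) from the start. Among all 32851 windows of this length, 6.38% held at least 1. None of the windows of Notch1, Notch2, Notch3, Jag1, Jag2, Dll1 or Rbpj held one. Those of Nrarp, Id3 and Hes6, listed here with the targets, held none either. Windows of Hes1 and Hey1 were not searched. The shorter TGGGAA, which overlaps the longer motif and was found in 25.6% of all windows, was present in both windows of Rbpj. The Hes5 window had a GC content of 72.7% and a CpG observed-to-expected ratio of 1.04, against medians of 52.7% and 0.384 over all windows. A match describes letters and does not show binding.

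In GROs Hes5 was pooled at 21.1 CPM (95% interval 20.4 to 21.8) for iPSC GROs, 9.56 CPM (9.09 to 10.1) for gonad GROs, and 13.6 CPM (13.1 to 14.2) for GROs grown in vivo. Single iPSC-derived GROs had from 2.04 to 49.3 CPM with a median of 17.4. Single gonad-derived GROs had from 0.583 to 28.0 CPM with a median of 7.46. Every one of the 71 GROs had at least 1 Hes5 read, and the 3 groups overlapped widely.

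In FGOs Hes5 was pooled at 1.89 CPM (1.69 to 2.11) for iPSC FGOs, 1.45 CPM (1.27 to 1.64) for gonad FGOs, 0.621 CPM (0.505 to 0.756) for 6 dpp FGOs, and 0.248 CPM (0.174 to 0.344) for FGOs grown in vivo. The medians over oocytes followed the same order, at 1.24, 1.22, 0.501 and 0.0680 CPM. At the upper end the highest oocyte had 11.2, 4.74, 1.74 and 2.64 CPM in that order. No read of Hes5 was found in 1 of 24, 2 of 24, 4 of 24 and 10 of 20 oocytes. Neighbours in this order overlapped in their single oocytes, and the pooled intervals of the iPSC-derived and gonad-derived FGOs were the closest.

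For growth in vivo the log2 ratio of Hes5 was -4.24, and the highest FGO (2.64 CPM) lay below the lowest GRO (3.57 CPM). Genes with every FGO below every GRO made up 1.19% of 13148 genes tested. In vivo FGO 7, which held 18 of the 36 Hes5 reads in that group, was one of the 4 FGOs that stood apart, and without it the pooled level was 0.130 CPM. Without those 4 the ratio was -4.63, and it was -4.17 with in vivo GROs 1 to 16 alone and -4.36 with GROs 17 to 24 alone.

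The comparisons of growth in culture share no oocyte with growth in vivo or with each other, though their earlier results were also known. The Hes5 ratio of FGOs over GROs was -3.17 for iPSC-derived and -2.37 for gonad-derived oocytes. Of the 24 iPSC-derived FGOs, 17 lay below the lowest GRO, and of the 24 gonad-derived FGOs 6 did, so the stages overlapped in both. Without iPSC-derived FGO 8, the oocyte at 11.2 CPM, the iPSC ratio was -3.45. With a pseudocount of 2 CPM the gonad ratio was -1.75, which is under 4-fold.

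Hey1 (chr3:8663359-8667256, minus strand) encodes another repressor of the same class and was detected in every oocyte. Its pooled level was 32.4 CPM (31.6 to 33.3) for iPSC GROs, 20.7 CPM (20.0 to 21.5) for gonad GROs, and 24.4 CPM (23.6 to 25.2) for GROs grown in vivo. It was 21.2 CPM for iPSC FGOs, 16.6 CPM for gonad FGOs, 16.4 CPM for 6 dpp FGOs, and 22.4 CPM for FGOs grown in vivo. No Hey1 ratio reached 2-fold. The ratios nearest to it were 0.63 in iPSC-derived over gonad-derived GROs and -0.60 from iPSC-derived GROs to FGOs. Single oocytes ran from 8.11 CPM in a gonad-derived GRO to 48.8 CPM in an iPSC-derived GRO. Every iPSC-derived GRO (24.1 CPM or more) lay above every 6 dpp FGO (22.5 CPM or less), groups that differ in stage and source. For this pair of groups the share of all genes separated in this way was not counted.

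Hes1 (chr16:30064384-30067796, plus strand) was scarce, with 548 reads over all oocytes and pooled values between 0.262 CPM in in vivo FGOs and 0.730 CPM in iPSC-derived GROs. The highest oocyte, iPSC-derived GRO 8, had 7.44 CPM and the next in its group 2.10 CPM. It held 53 of the 120 Hes1 reads of that group, whose pooled value without it was 0.426 CPM, below gonad-derived (0.649) and in vivo (0.507) GROs. Reads were absent from 38 of the 163 oocytes. Its ratios stayed within 2-fold in all 8 comparisons, from -0.67 in iPSC growth to 0.27 in 6 dpp over in vivo FGOs. Without iPSC-derived GRO 8 the iPSC growth ratio was -0.26, and IVP@GRO turned from 0.10 to -0.31.

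**Figure D1:**
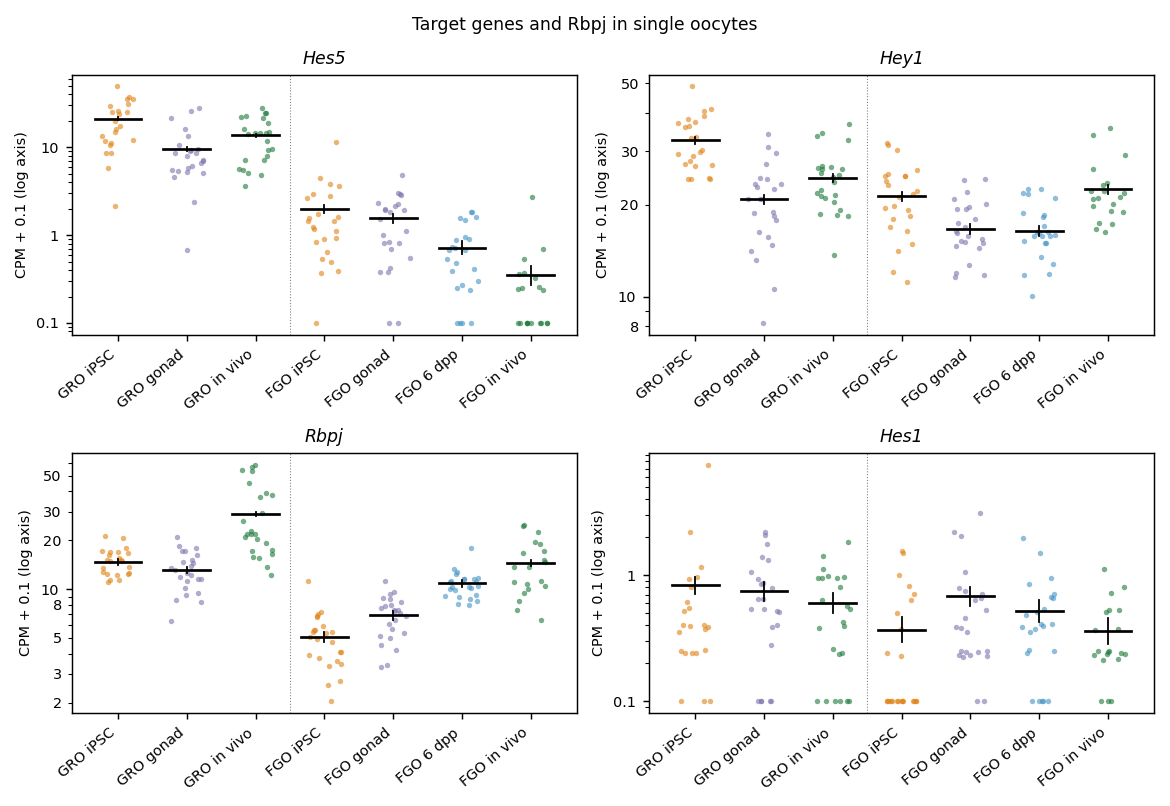
CPM + 0.1 on log axes for Hes5, Hey1, Rbpj and Hes1 in the 7 groups, with GROs left and FGOs right of the dotted line. Points are single oocytes, horizontal bars pooled values and vertical bars exact Poisson 95% intervals. Hes5 lies lower in each FGO group than in any GRO group by its pooled value, and Rbpj in in vivo GROs spreads from 12.1 to 58.4 CPM.

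Rbpj (chr5:53466152-53657362, plus strand), which brings the complex to DNA, was read in every oocyte. Its pooled level was 14.7 CPM (14.1 to 15.3) for iPSC GROs, 13.1 CPM for gonad GROs, and 28.8 CPM (28.0 to 29.7) for GROs grown in vivo. In FGOs it was 4.96 CPM (4.63 to 5.32) for iPSC FGOs, 6.79 CPM (6.39 to 7.20) for gonad FGOs, 10.7 CPM (10.2 to 11.3) for 6 dpp FGOs, and 14.4 CPM (13.8 to 15.0) for FGOs grown in vivo. The FGO groups thus stood in the reverse of the order seen for Hes5, and neighbouring groups overlapped in single oocytes.

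The in vivo GROs that stood apart had the higher Rbpj values. In vivo GROs 1 to 16 had from 12.1 to 29.4 CPM of Rbpj with a median of 19.7, and GROs 17 to 24 had from 36.7 to 58.4 CPM with a median of 49.3. The 2 sets did not overlap. Jag1 did not overlap between them either, with at most 538 CPM in the first set and at least 539 CPM in the second, whereas Hes5 did. Notch2 had pooled 0.435 CPM in the first set and 0.0186 CPM in the second. The 2 sets were told apart by the expression in these same libraries, so that some genes must differ between them. The share of all genes without overlap was not counted. At least 2-fold higher in GROs 17 to 24 were 6.88% of genes, and 1.14% were at least 2-fold lower. Whether these differences relate to handling was not tested.

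**Figure D2:**
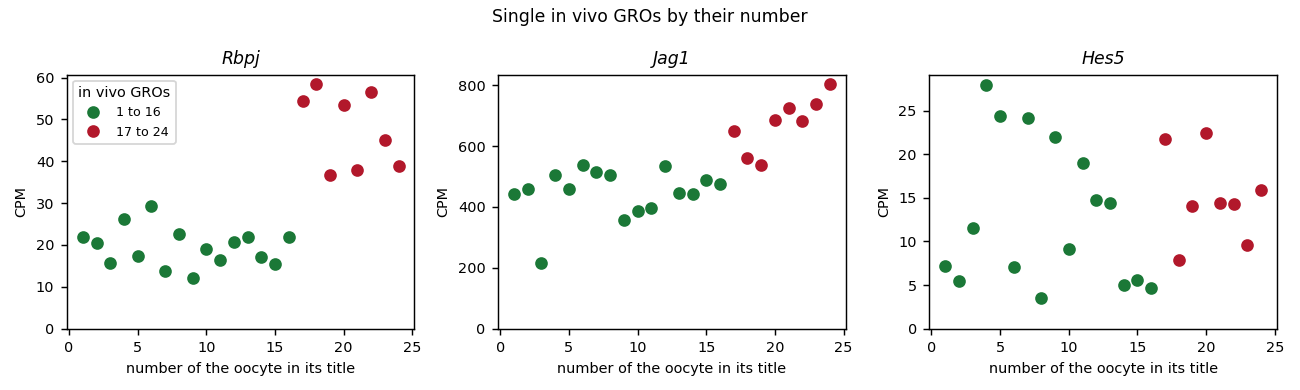
CPM of Rbpj, Jag1 and Hes5 in the 24 in vivo GROs (linear axes from 0) against the number in the oocyte's title, with oocytes 1 to 16 in green and 17 to 24 in red. The red points lie above all green points for Rbpj (36.7 CPM and more) and Jag1, and among them for Hes5.

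The Rbpj ratio from GROs to FGOs was -1.47 for iPSC-derived oocytes, where every one of the 23 GROs had at least 11.0 CPM and the highest FGO 11.2 CPM. It was -0.90 for gonad-derived oocytes. In vivo it was -0.98, or -0.42 with GROs 1 to 16 alone and -1.69 with GROs 17 to 24 alone. Without the 4 in vivo FGOs that stood apart it was -1.14, past 2-fold. Between gonad-derived and in vivo GROs (IVD@GRO) the ratio was -1.11, or -0.56 with in vivo GROs 1 to 16 alone and -1.83 with GROs 17 to 24 alone. The 2-fold difference of IVD@GRO was thus absent without GROs 17 to 24, and by the medians of single oocytes.

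Among ligands, Jag1 (chr2:137081456-137116644, minus strand) was the most abundant of the 10 genes. Its pooled level was 404 CPM (401 to 407) for iPSC GROs, 489 CPM (485 to 492) for gonad GROs, and 524 CPM (520 to 527) for GROs grown in vivo. In FGOs it was 558 CPM for iPSC FGOs, 596 CPM for gonad FGOs, 599.6 CPM for 6 dpp FGOs, and 517 CPM for FGOs grown in vivo. Single oocytes lay between 197 and 806 CPM, every group overlapped every other, and all 8 ratios were between -0.27 and 0.46. Those of growth in vivo (-0.02) and IVD@GRO (-0.10) changed sign with the in vivo GROs used. They were 0.21 and 0.13 with GROs 1 to 16 alone and -0.39 and -0.47 with GROs 17 to 24 alone.

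Jag2 (chr12:112907819-112929776, minus strand) encodes the other Jagged ligand. It was pooled at 92.9 CPM for iPSC GROs, 100.3 CPM for gonad GROs, and 139 CPM for GROs grown in vivo. Among FGOs it was pooled at 81.3 CPM for the iPSC line, 83.9 CPM for gonads, 62.8 CPM for 6 dpp follicles and 65.1 CPM in vivo. In vivo GROs had from 65.6 to 228 CPM with a median of 146, and in vivo FGOs from 34.7 to 132 CPM with a median of 53.1. The growth ratio in vivo was -1.09, while it was -0.19 for iPSC-derived and -0.26 for gonad-derived oocytes. It was -0.97 with in vivo GROs 1 to 16 alone, which is under 2-fold, and -1.39 without the 4 in vivo FGOs that stood apart.

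Dll1 (chr17:15367354-15376872, minus strand) encodes a Delta ligand and was near the limit of detection, with 888 reads in all and none in 74 of the 163 oocytes. It was pooled at 0.292 CPM (0.215 to 0.387) for iPSC GROs, 1.59 CPM (1.40 to 1.80) for gonad GROs, and 1.74 CPM (1.55 to 1.96) for GROs grown in vivo. In FGOs it was 0.162 CPM (0.107 to 0.236) for iPSC FGOs, 1.21 CPM (1.05 to 1.39) for gonad FGOs, 0.314 CPM (0.233 to 0.414) for 6 dpp FGOs, and 0.235 CPM (0.162 to 0.328) for FGOs grown in vivo. Both iPSC-derived groups thus had less than their gonad-derived counterparts. Of the 27 reads in iPSC FGOs, oocyte 16 held 12, and without it the pooled value was 0.0942 CPM.

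The spread of Dll1 between oocytes was wide. Gonad-derived GROs ran from 0 to 10.2 CPM with a median of 0.751, and 6 of the 24 had no read. The in vivo GROs ran from 0 to 9.74 CPM with a median of 1.01, and 7 of the 24 had none. In iPSC-derived oocytes 14 of 23 GROs and 19 of 24 FGOs had none, and the highest had 1.76 and 1.73 CPM. All groups overlapped at 0.

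The Dll1 ratio of iPSC-derived over gonad-derived oocytes was -1.40 at the GRO stage (IVP@GRO) and -1.37 at the FGO stage (IVP@FGO). The study had named Dll1 as lower in IVP@GRO from these same libraries, so the first value is a description. These 2 comparisons share no library, but both rest on 1 iPSC line and on 1 sample per group. Without the highest gonad-derived oocyte of each, GRO 19 and FGO 3, they were -1.08 and -1.25. With a pseudocount of 2 CPM they were -0.65 and -0.57, and with 0.1 CPM -2.11 and -2.32, past 4-fold. Gonad-derived over 6 dpp FGOs (IVD@FGO) gave 1.07, or 0.95 without gonad-derived FGO 3 and 0.98 without FGO 15. Growth in vivo gave -1.61, or -0.74 with a pseudocount of 2 CPM and -2.46 with 0.1 CPM, while iPSC-derived and gonad-derived growth gave -0.26 and -0.29. Without gonad-derived GRO 19 the last was 0.03. The ratio of growth in vivo was -1.85 without the 4 in vivo FGOs that stood apart.

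**Figure D3:**
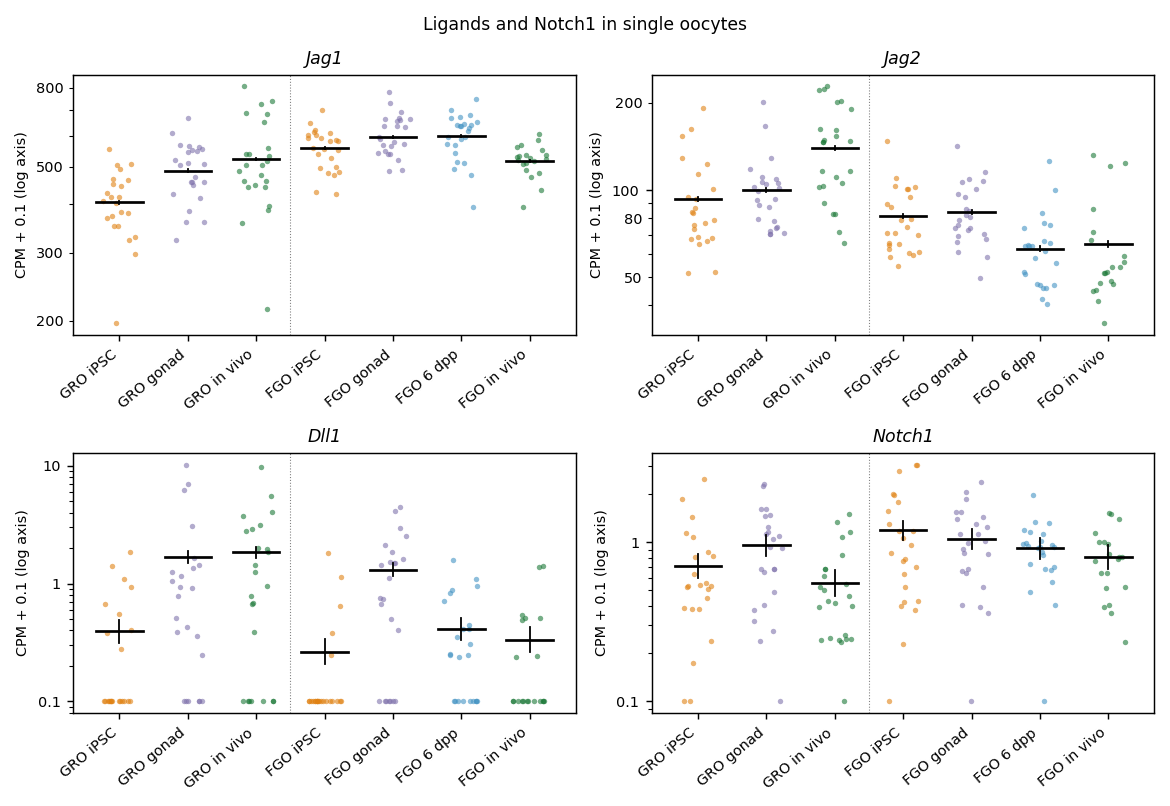
CPM + 0.1 on log axes for Jag1, Jag2, Dll1 and Notch1 in the 7 groups, with GROs left and FGOs right of the dotted line, points for single oocytes, horizontal bars for pooled values and vertical bars for exact Poisson 95% intervals. Jag1 lies between 197 and 806 CPM throughout, and many oocytes have no read of Dll1 (0.1 on this axis), including 19 of 24 iPSC-derived FGOs.

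The receptors were scarce in these oocytes. Notch1 (chr2:26457903-26516663, minus strand) had pooled values of 0.614, 0.860 and 0.457 CPM in iPSC-derived, gonad-derived and in vivo GROs, and of 1.09 and 0.948 CPM in FGOs from the iPSC line and from gonads, 0.816 CPM in 6 dpp FGOs and 0.711 CPM in in vivo FGOs. Single oocytes ran from 0 to 2.98 CPM, and no ratio passed 2-fold. Notch2 (chr3:98013527-98150361, plus strand) lay between 0.164 CPM in iPSC-derived GROs and 0.414 CPM in 6 dpp FGOs, with reads in 97 of 163 oocytes. Its ratio was 0.07 in growth in vivo and -0.22 in IVD@GRO, or -0.16 and -0.45 with in vivo GROs 1 to 16 alone and 0.69 and 0.40 with GROs 17 to 24 alone. Without the 4 in vivo FGOs that stood apart, the Notch2 ratio of growth in vivo was -0.16. Notch2 did not enter the comparisons of growth in culture because too few oocytes passed 1 CPM.

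Notch3 (chr17:32120820-32166852, minus strand) had 17 reads over all oocytes, of which 10 were in 6 dpp FGOs, and entered no comparison. It had 0 reads in iPSC-derived GROs, gonad-derived GROs and gonad-derived FGOs, for which the upper ends of the Poisson intervals were 0.0224, 0.0235 and 0.0227 CPM. Its highest oocyte was 6 dpp FGO 10 with 0.933 CPM, from 6 of the 10 reads.

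The counted length of Notch1 was 1393 bases, or 14.7% of its longest transcript in GENCODE M21, and that of Notch2 was 2205 bases, or 21.0%. Reads from the rest of these transcripts would not be in the counts. For the other 8 genes the counted length was between 99.3% and 116% of the longest transcript. Exons on the opposite strand overlap Hes5 (Gm20421), Dll1 (A930024N18Rik), Notch1 (0610009E02Rik and Gm13568) and Notch3 (Gm17276), and exons of Gm42820 overlap Notch2 on the same strand. Reads of these genes and of their partners cannot be told apart where their exons overlap.

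Per kilobase of counted exon, the pooled level of Jag1 was 61.9 to 91.8 CPM and that of Jag2 12.3 to 27.4 CPM. Hey1 had 6.81 to 13.5 CPM per kilobase. Hes5 had 6.86 to 15.1 CPM per kilobase in GROs and 0.178 to 1.36 in FGOs. Rbpj had 0.865 to 5.03. The pooled levels of Dll1, Hes1, Notch1, Notch2 and Notch3 were under 1 CPM per kilobase in all 7 groups.

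**Figure D4:**
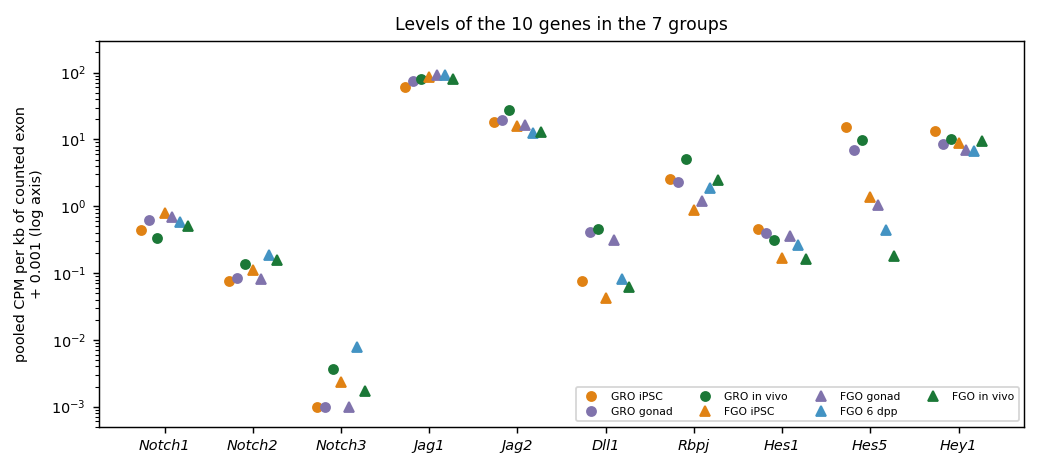
Pooled CPM per kilobase of counted exon + 0.001 (log axis) for the 10 genes, with circles for the 3 GRO groups and triangles for the 4 FGO groups, coloured by source. Jag1 is highest in each group, at 61.9 to 91.8, and Hes5 triangles lie below all Hes5 circles.

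Counts of the 10 genes past a size rule were set against all genes tested. In growth in vivo 9 of the 10 could be read, and 3 (Jag2, Dll1 and Hes5) were at least 2-fold lower, where 13.2% of all genes were, and 0 at least 2-fold higher, where 10.4% were. Hes5 was at least 4-fold lower, as were 1.95% of all genes, and nothing is read from these counts because Hes5 in this comparison was known at the choice. In iPSC growth 2 of 8 (Rbpj and Hes5) were at least 2-fold lower, against 15.3% of genes, and Hes5 at least 4-fold lower, against 3.61%. None was 2-fold higher, against 6.69%. In gonad growth 1 of 8, Hes5, was at least 2-fold lower, against 9.98%, and at least 4-fold lower, against 1.87%, while 0 were 2-fold higher, against 5.82%. Median ratios of the genes read were -0.40, -0.43 and -0.27 in these 3 comparisons, against -0.11, -0.11 and -0.05 over all genes tested.

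In the culture steps few members passed 2-fold. In IVP@GRO 1 of 9 was at least 2-fold higher, against 1.98% of genes, and 1 at least 2-fold lower, against 1.75%. The higher one was Hes5 (1.10), whose iPSC-derived and gonad-derived GROs overlapped and whose ratio was 0.997 with a pseudocount of 2 CPM. The lower one was Dll1, which the study had named there from these same libraries. In IVD@GRO 1 of 9, Rbpj, was at least 2-fold lower, against 2.7%, and none 2-fold higher, against 4.18%. In IVP@FGO 1 of 9, Dll1, was at least 2-fold lower, against 3.74%, and none higher, against 2.19%. In IVD@FGO 1 of 9, Dll1, was at least 2-fold higher, against 1.58%, and none lower, against 0.95%. The comparison of 6 dpp with in vivo FGOs (IVG@FGO) had 0 of 9 in either direction, against 1.22% higher and 2.97% lower. No member was 4-fold apart in a culture step. Among all genes 0.559% were 4-fold apart in IVP@GRO and 0.685% in IVD@GRO, and among FGOs 0.685% for IVP, 0.42% for IVD and 0.353% for IVG. IVP@GRO and IVD@GRO share the gonad-derived GROs, IVP@FGO and IVD@FGO the gonad-derived FGOs, and IVD@FGO and IVG@FGO the 6 dpp FGOs.

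For Hes5 IVD@GRO gave a ratio of -0.49. Among FGOs its ratio was 0.30 for IVP (0.02 without iPSC-derived FGO 8), 0.80 for IVD and 0.58 for IVG (0.83 without in vivo FGO 7). Without the 4 in vivo FGOs that stood apart, Hes5 was pooled at 0.0702 CPM in the in vivo FGOs left. Rbpj had 0.16 in IVP@GRO and, among FGOs, -0.42 for IVP, -0.63 for IVD and -0.40 for IVG. With all oocytes and a pseudocount of 0.5 CPM none of these reached 2-fold. With 0.1 CPM Hes5 did for IVD and IVG among FGOs.

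**Figure D5:**
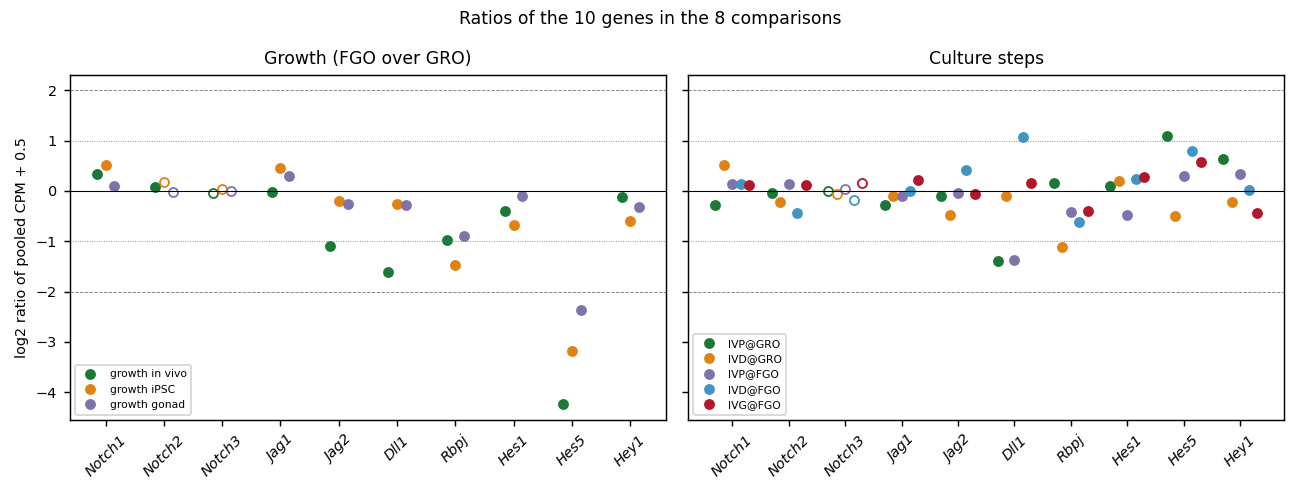
Log2 ratios of pooled CPM + 0.5 for the 10 genes in the 3 growth comparisons (left, FGOs over GROs) and the 5 culture steps (right). Open points did not pass the filter, and dotted and dashed lines mark 2-fold and 4-fold. Hes5 is past 4-fold in each growth comparison, at -4.24, -3.17 and -2.37, and no gene is past 4-fold on the right.

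Genes listed as markers of other cell types were read beside these values. Of 14 granulosa markers listed, 12 were in the table, and their summed level was 18.7 to 104 CPM over single GROs and 52.7 to 1630 CPM over single FGOs. The medians of the groups were 50.5 to 54.2 CPM in GROs and 89.8 to 128 CPM in FGOs, with Cyp19a1 or Nr5a2 leading. At least 1 pooled CPM was reached by 4 or 5 of the 12 in GROs and by 5 to 9 in FGOs. Among the 4 endothelial markers Pecam1 alone was pooled at 67.0 to 101 CPM in GROs and at 113 to 149 CPM in FGOs. Of the 4, 2 reached 1 pooled CPM in each group, and Cdh5 was at 0 in 3 of the 7 groups. The 4 endothelial markers had summed medians of 85.6 to 115 CPM in GROs and 131 to 172 CPM in FGOs. Their highest sum, 289 CPM, was in in vivo GRO 3, which also had the highest Dner, Nrarp and Nle1 of its group. The 8 markers of theca and stroma had medians of 1.93 to 5.66 CPM, with 173 CPM in 6 dpp FGO 12, and 3 of 4 cumulus markers were in the table, with medians of 0 to 1.91 CPM. The summed granulosa markers and Pecam1 were thus higher, and the summed oocyte markers lower, at the stage where Hes5 and Rbpj were lower. A sum led by Pecam1 does not show that endothelial cells were present. The part of these markers in the ratios was not tested. Leaving out the oocytes of highest granulosa markers in all groups at once changed no count of members past 2-fold or 4-fold. Leaving out in vivo FGO 19 by itself, at 413 CPM of these markers, brought Rbpj in growth in vivo from -0.98 to -1.01, just past 2-fold. Other single oocytes did the same when left out, among them in vivo FGO 22 (-1.05) and in vivo GRO 9 (-1.02).

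Another 59 genes of the pathway were listed, and 57 were in the table. In growth in vivo 14 of the 48 that passed the filter were at least 2-fold lower, against 13.2% of all genes, and 0 higher, against 10.4%. With in vivo GROs 1 to 16 alone 10 were lower, against 11.3% of all genes, and 1 higher, against 10.7%. With GROs 17 to 24 alone 17 were lower, against 17.7%, and 2 higher, against 12.1%. In iPSC growth 10 of 46 were lower, against 15.3%, and 0 higher, against 6.69%. In gonad growth 9 of 47 were lower, against 9.98%, and 2 higher, against 5.82%. Their median ratios were -0.54, -0.50 and -0.20. At least 2-fold lower in each of the 3 growth comparisons, which share no oocyte, were 7 of the 44 readable in all, namely Nrarp, Id3, Maml2, Kdm5a, Tle4, Mib1 and Neurl1a. With in vivo GROs 1 to 16 alone Neurl1a left this list and 6 remained. Of all 12478 genes readable in all 3, 6.56% were lower in each, or 6.28% with those GROs alone, and among the 10 chosen genes Hes5 was.

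Whether Notch drives the other genes listed as targets in these oocytes was not tested. Among them, Id3, which encodes an inhibitor of helix-loop-helix factors, had 192, 177 and 209 CPM in iPSC-derived, gonad-derived and in vivo GROs. It had 20.6, 24.2 and 35.1 CPM in the matching FGOs. Its growth ratios were -3.19, -2.84 and -2.56 in that order. In the cultured oocytes no FGO reached the lowest GRO, though the share of all genes so separated there was not counted. In vivo the highest FGO had 173 CPM and the lowest GRO 141 CPM. That FGO was oocyte 7, and without the 4 FGOs that stood apart the highest had 51.9 CPM and the ratio was -3.76. Nrarp, a target whose product dampens Notch signalling, had ratios of -1.82, -1.41 and -2.40, from 7.20, 6.81 and 9.65 CPM in GROs. Hes6 passed 2-fold in growth in vivo and not in culture, a contrast that was not tested, with 115 CPM in GROs and 46.9 CPM in FGOs (-1.28).

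Heyl, another Hey family gene, was at least 2-fold higher in gonad growth (1.32), IVD@GRO (1.03) and IVD@FGO (1.49). Gonad-derived FGO 18 had 48.8 CPM, and without it the first and last of these were 0.62 and 0.79. The IVD@GRO ratio was 0.94 without gonad-derived GRO 1 and 0.97 with in vivo GROs 1 to 16 alone. Id1, a relative of Id3, was higher in IVP@FGO (1.28) and in IVG@FGO (1.46; 5.75 against 1.77 CPM). The highest Id1 value in 6 dpp FGOs, 42.3 CPM, was in oocyte 12, which also had the highest granulosa marker sum (1630 CPM), and without it the ratio was 1.05.

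Among genes of the nuclear complex, the corepressor Tle4 had growth ratios of -1.02 for iPSC-derived, -1.21 for gonad-derived and -1.99 for in vivo oocytes, the last being -1.37 with in vivo GROs 1 to 16 alone. The histone demethylase gene Kdm5a had -2.18, -1.60 and -1.82, and the Mastermind gene Maml2 had -1.59, -1.40 and -2.11. Without the 4 in vivo FGOs that stood apart, the in vivo ratio was -2.40 for Kdm5a and -2.26 for Tle4, both past 4-fold. Leaving out FGOs that lay towards the GROs favours such a shift. Maml1 (-1.21), Ep300 (-1.17) and Crebbp (-1.02), which encode coactivators, were at least 2-fold lower in growth in vivo. With in vivo GROs 1 to 16 alone those 3 ratios were -0.47, -0.52 and -0.21, and without in vivo GRO 19 that of Crebbp was -0.93. Without iPSC-derived GRO 4 the iPSC ratio of Tle4 was -0.99.

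IVD@GRO had 4 of 49 other pathway genes at least 2-fold lower, Maml2 (-1.08), Crebbp (-1.10), Mib1 (-1.15) and Fbxw7 (-1.01), against 2.7% of all genes, and 1, Heyl, at least 2-fold higher, against 4.18%. With in vivo GROs 1 to 16 alone they were -1.13, -0.29, -0.42 and -0.18, so that 1 of the 49, Maml2, was lower, against 1.44% of all genes, and 1, Mfng (1.01, or 0.95 with all in vivo GROs), higher, against 4.44%. With GROs 17 to 24 alone 9 were lower, against 9.1%, and 2 higher, against 5.1%. Without in vivo GRO 24 Maml2 was at -0.94, and without in vivo GRO 19 Fbxw7 was at -0.91. Crebbp had at most 90.6 CPM in in vivo GROs 1 to 16 and at least 119 CPM in GROs 17 to 24, a split like that of Rbpj. How many of all genes split in this way was not counted.

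Of genes for ligand uptake and turnover, the ubiquitin ligase gene Mib1 had growth ratios of -1.38 for iPSC-derived, -1.14 for gonad-derived and -1.83 for in vivo oocytes. Neurl1a, from the Neuralized family, had -1.18, -1.11 and -1.06. With in vivo GROs 1 to 16 alone the in vivo ratio was -1.10 for Mib1 and -0.85 for Neurl1a, the latter under 2-fold. Fbxw7 (-1.52) and Nle1 (-1.27) were lower in growth in vivo, and Fbxw7 had -0.69 with in vivo GROs 1 to 16 alone and Nle1 -0.96 with GROs 17 to 24 alone. Numb was lower in iPSC growth (-1.11; 104 to 47.9 CPM). Mib2 was higher in IVD@FGO (1.06), or 0.91 without gonad-derived FGO 2.

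All 9 genes in the table for gamma-secretase subunits and for the proteases that process the receptor (Adam10, Adam17 and Furin) were at or above 1 pooled CPM in each group. Ncstn was lower in iPSC growth (-1.58; 194 to 64.6 CPM), and Aph1c (-1.15) was lower and the sheddase gene Adam17 (1.06; 226 to 471 CPM) higher in gonad growth. Every gonad-derived FGO lay above every gonad-derived GRO for Adam17, but the share of all genes separated in this way was not counted. Pofut1, for the enzyme that fucosylates Notch, was lower in gonad growth (-1.09) and in IVG@FGO (-1.11; 0.728 against 2.16 CPM).

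Among other receptors and ligands, Dner had growth ratios of -2.14 in vivo, -2.08 in iPSC-derived and -0.54 in gonad-derived oocytes, from 3.74, 4.09 and 2.42 CPM in GROs. In vivo GRO 3 had 23.7 CPM of Dner, and without it the in vivo ratio was -1.80. That ratio was -2.40 with in vivo GROs 1 to 16 alone and -1.39 with GROs 17 to 24 alone. Without iPSC-derived GRO 16 the iPSC ratio was -1.97. Dll3, an atypical Delta ligand, had 13.7 to 26.3 CPM in the 7 groups and stayed within 2-fold in all 8 comparisons. Dll4 and Tcim were named with Dll1 by the study from these same libraries, so they are not independent evidence of a direction. In IVP@GRO 0 of the 49 other pathway genes were 2-fold apart, 28 ratios were above 0 and 21 below, and their median was 0.12. Dll4 had 0.134 CPM in iPSC-derived and 0.707 CPM in gonad-derived GROs (-0.93), and Tcim 0.0912 and 0.452 CPM (-0.69). Tcim was at least 2-fold higher in IVG@FGO (1.17; 1.34 against 0.317 CPM).

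The genes most like Hes5 over the 163 oocytes, by Pearson's r of log2(CPM + 1) among 9834 others with at least 5 pooled CPM in a group, were Cebpzos (0.851), Haghl (0.850), 4930484H19Rik (0.848), Fn3krp (0.845) and Gigyf1 (0.844). These oocytes share 7 groups. With each group's mean removed, r was 0.253 for Cebpzos, 0.313 for Haghl, 0.291 for 4930484H19Rik, 0.350 for Fn3krp and 0.301 for Gigyf1. Between the 10 genes the group-centred r was highest for Rbpj with Jag1 (0.331), then Hey1 with Hes5 (0.277) and Hes5 with Hes1 (0.253), with Notch3 left out. Rbpj and Jag1 are the members that split in vivo GROs 1 to 16 from 17 to 24, and without GROs 17 to 24, over 155 oocytes, their r was 0.144, while the other 2 pairs had 0.274 and 0.240. The lowest r was that of Jag1 with Notch2 (-0.263), or -0.187 without those GROs, where Jag2 with Jag1 had the lowest (-0.297).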

How the data were processed

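As the labels and the published methods state, the authors aligned reads with STAR to GRCm38 (mm10) and deposited raw counts of uniquely mapped exonic reads per gene, made with QuasR for 1 transcript of each gene picked at random, whose exonic length in bases they deposited beside the counts. The use of strand is not given in the sources used here. Of 21950 identifiers, 21907 had a symbol in RefSeq (GRCm38.p6). Library sizes were column totals, and 0 per-oocyte columns were left unused. No 2 oocytes had identical counts.

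Counts were summed per group, since the labels name no animal or culture, and compared as log2 ratios (pseudocount 0.5 CPM) by size rules of 2-fold and 4-fold, with no test. The ratio was tested on simulated data, and no result given here rests on that. Members and gene lists were chosen with earlier results of these data known. All 10 members are named, and other pathway genes where 2-fold or more apart and pooled at 1 CPM or above in one group. Dll3, Dll4, Tcim and the genes most like Hes5 are named besides. Alternatives were TMM (edgeR 4.0.16) and DESeq2 1.42.0 scaling, pseudocounts of 0.1 and 2 CPM, no filter, means or medians of oocytes, and leaving out oocytes. Leaving out in vivo GROs 1 to 16 or 17 to 24, or in vivo FGOs 5, 7, 19 and 22, was chosen after seeing the data. Python 3.11.15, numpy 2.4.6, pandas 2.3.3, scipy 1.17.1 and R 4.3.3 were used. Precision is limited by 1 sample per group and, for scarce genes, by depth.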

Additional observations from a re-analysis of the deposited data

How the results depend on the processing

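No paired analysis was possible because oocytes with the same number share nothing else in the labels and no result comes from a test. With a pseudocount of 0.1 CPM, 2 members were 4-fold apart in growth in vivo (Hes5 and Dll1) and 1 each in IVP@GRO and IVP@FGO (Dll1), and 2 were 2-fold apart in IVD@FGO, 1 in IVG@FGO and 3 in iPSC growth, where Hes1 was added (at -0.50 without iPSC-derived GRO 8). With 2 CPM, 0 were 4-fold apart in gonad growth and 0 were 2-fold apart in IVP@GRO, IVP@FGO and IVD@FGO, and 2 rather than 3 in growth in vivo, where Dll1 was at -0.74. These moves follow from the weight a pseudocount gives to scarce transcripts. In IVD@GRO 0 members were 2-fold apart by medians of oocytes and 0 without in vivo GROs 17 to 24. In IVD@FGO 0 were 2-fold apart without the oocytes the study left out by size, and leaving out single oocytes gave 0 to 1. In growth in vivo leaving out single oocytes gave 3 to 4, since Rbpj (-0.98) passed 2-fold without any 1 of 12 oocytes, reaching at most -1.05. The cause was not tested. In growth in vivo 2 were 2-fold apart without in vivo GROs 17 to 24, and 4, with Rbpj added, without in vivo FGOs 5, 7, 19 and 22. Of the 11 member ratios past 2-fold, 4 stayed past it in every setting run (Hes5 in the 3 growth comparisons and Rbpj in iPSC growth), 7 did not in at least 1, and none changed sign. TMM or DESeq2 scaling moved the median ratio of all genes by at most 0.07 and changed no count of members. Depth limits Notch2, Notch3, Hes1 and Dll1, and Dll1 ratios past 2-fold rest on 27 to 282 reads per group.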
